A study of Mus musculus with 6 samples.

Results

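The genes described here carry the fibroblast growth factor (FGF), platelet-derived growth factor (PDGF) and insulin-like growth factor (IGF) signals of the embryonic heart. Members were taken by a rule on gene symbols that uses no measured value, written with earlier results of these data known. It takes the FGF family genes, the FGF receptors, the Sprouty genes, Dusp6, Etv4 and Etv5. It also takes the PDGF ligands with Pdgfra, Igf1 with the IGF and insulin receptors, the IGF binding proteins and the IGF2 mRNA binding proteins. This gave 50 members among the 45792 genes of the count table, of which 43 had enough reads to be tested. The FGF family members Fgf4, Fgf15 and Fgf21 carried no symbol in the deposited table and were therefore not members. Fgf4 and Fgf15 had 0 reads in every heart, and Fgf21 had 1 read in 1 control heart.

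RNA was sequenced from 6 whole mouse hearts at embryonic day 13.5. The 3 control hearts were labelled wild type, and the 3 mutant hearts carried Tie2Cre with both Ino80 alleles floxed. All 6 were given as strain C57BL/6, whereas the methods describe mixed backgrounds and define controls as every genotype other than the mutant one. Ino80 is the ATPase of a chromatin remodelling complex, and Tie2Cre expresses the recombinase in endothelial cells, endocardium included, and in blood cells that share their origin, so most cells of a mutant heart were to keep the gene. The comparison asks how loss of Ino80 from the endothelium altered RNA levels in the heart as a whole.

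The FGF, PDGF and IGF families signal through receptor tyrosine kinases that activate the RAS and MAP kinase cascade and the PI3 kinase pathway. In the embryonic heart, FGFs from the epicardium and endocardium promote cardiomyocyte growth, PDGFs guide fibroblasts and mural cells, and IGF2 is a major mitogen of the ventricular wall. Sprouty proteins and Dusp6 dampen the cascade and are themselves induced by it, as are the transcription factors Etv4 and Etv5. IGF binding proteins hold IGFs in the extracellular space, and the IGF2 mRNA binding proteins are cytoplasmic proteins that bind Igf2 and many other transcripts.

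The 43 tested members had a median log2 fold change (mutant over control) of 0.15, against -0.0017 over all 17125 tested genes. Heart by heart the groups overlapped: the median log2 deviation of the members was 0.073, -0.094 and 0.045 in controls and 0.18, 0.065 and 0.034 in mutants, so only mutant replicate 1 lay above every control. The quasi-likelihood test of edgeR, with p-values adjusted over the whole table by the Benjamini-Hochberg method, placed 0 members under an adjusted p of 0.05, and 0% of all genes, and the smallest adjusted p of a member was 0.091, for Igf2bp1. Before adjustment, 9 members were higher in mutants at p under 0.05 (9.48% of all tested genes were) and 4 were lower (9.98%), together 30.2% of the members against 19.5% of all genes, a difference that was not tested. The values of the 3 mutant hearts lay wholly above those of the 3 controls for 8 members (14.3% of all genes) and wholly below for 4 (12.8%), together 27.9% of members against 27.1% of all genes, a share near the background. DESeq2, run as an alternative, called 4 members higher (Fgfrl1, Etv4, Igfbp2 and Igf2bp1) and 3 lower (Fgf18, Igfbp6 and Igfbp7), where it called 2.67% and 3.43% of all genes. On counts simulated with 200 genes changed by 2-fold, DESeq2 made 38 false calls beside 150 true ones and edgeR 9 beside 133. The simulation used dispersions estimated by edgeR and a set number of changed genes, so it does not give either tool's error rate or power in these data. The calls of DESeq2 were not shared by the main edgeR fit and are given with that limit. With every gene of at least 1 count kept in the edgeR fit, Igfbp2 and Igf2bp1 were called higher (0.926% of all genes were) and Igfbp7 lower (1.21%).

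**Figure D1:**
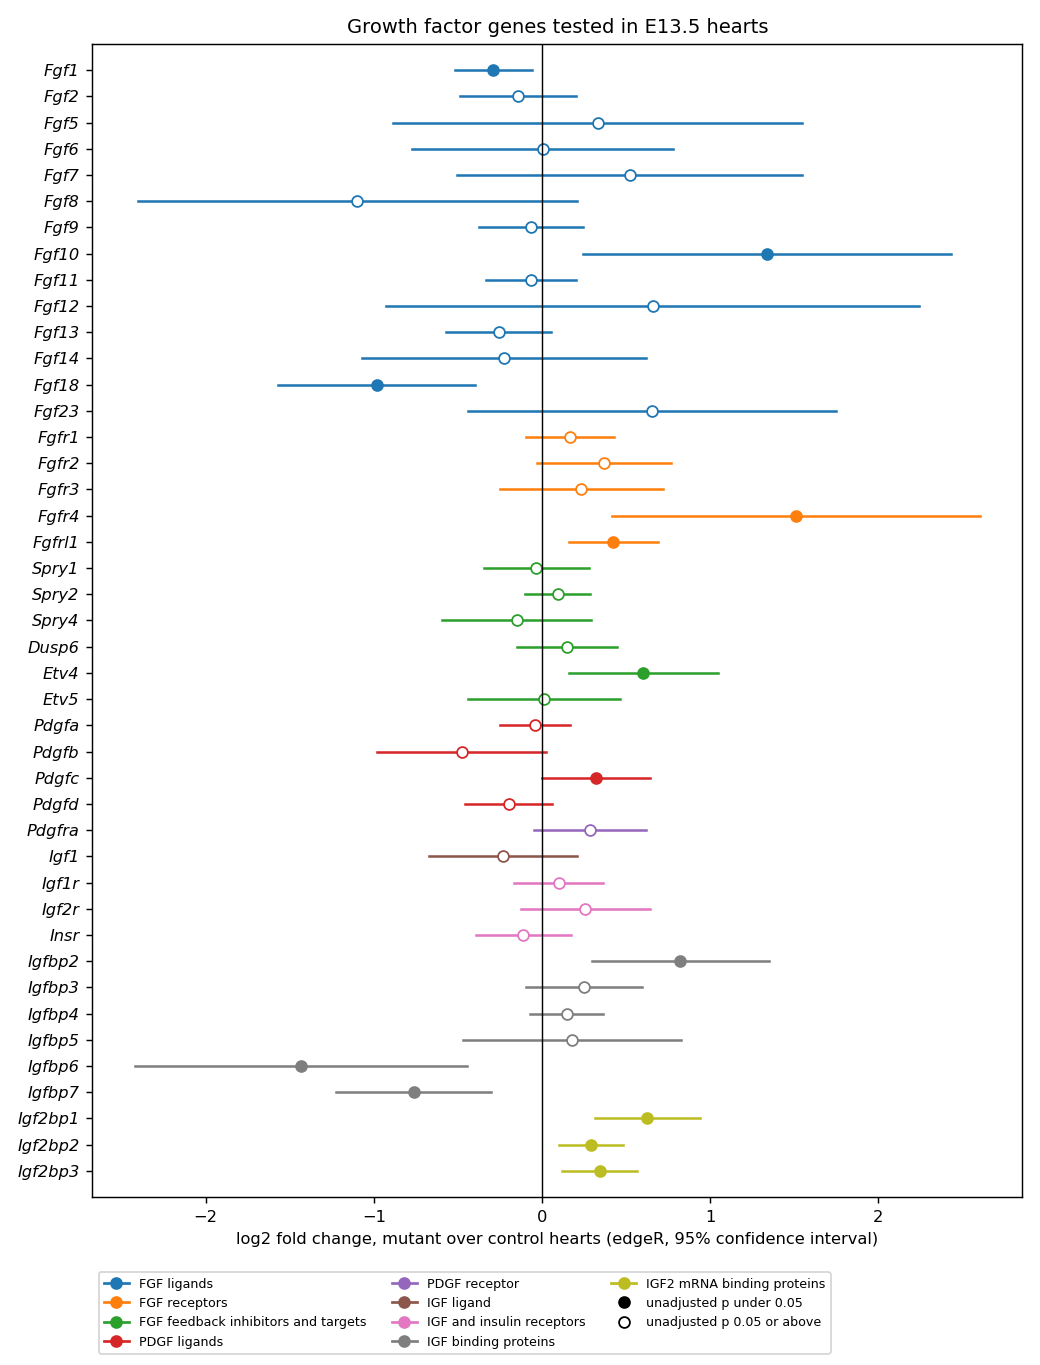
Log2 fold change (mutant over control) of each of the 43 tested members with its 95% confidence interval from edgeR, grouped by role, with filled points for an unadjusted p under 0.05. All 5 FGF receptors and all 3 IGF2 mRNA binding proteins lie to the right of 0, while 0 members reached an adjusted p of 0.05.

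The count of called members changed most when control replicate 1 was left out. The control heart closest to the mean of the mutants was replicate 1 for 22 of the 43 tested members, replicate 3 for 18 and replicate 2 for 3. Among the 13 with an unadjusted p under 0.05, these numbers were 9, 3 and 1. The shares over all genes were not taken. Without control replicate 1, edgeR called Igfbp2, Igf2bp1 and Igf2bp3 higher (1.85% of all genes were) and Fgf18, Igfbp6, Igfbp7 and Fgf16 lower (2.49%). Their adjusted p lay between 0.017 and 0.042. With any 1 of the other 5 hearts left out, edgeR called 0 members.

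The libraries held 28948836 to 89675692 counts. Levels are given as CPM, counts per M counts after TMM scaling for differences in library composition, and levels of different genes are compared only as CPM per kilobase of exon. Whole-gene Ino80 was 30.2, 31.6 and 32.7 CPM in controls and 36.5, 33.7 and 31.8 CPM in mutants (log2 fold change 0.11, SE 0.08, adjusted p = 0.47), a count that takes in exons outside the floxed one and cells without Cre and so does not check the labels. Cardiomyocyte markers were present in every heart, summing to 22165 to 27239 CPM in controls and 22432 to 23851 CPM in mutants. Summed epicardial markers (157 to 162 CPM in controls, 166 to 186 CPM in mutants), atrial markers (1566 to 1885 and 1962 to 2493 CPM) and coronary endothelial markers did not overlap between groups, whereas pan-endothelial markers did (747 to 941 and 845 to 896 CPM). Of the 6 epicardial markers, 3 had positive and 3 negative log2 fold changes. Upk3b (0.57) was higher in every mutant heart and Upk1b (-0.28) lower, so the epicardial sum does not speak for each marker. Reads of Y-linked genes were present in control replicates 1 and 2 and mutant replicate 3, so sex was unevenly spread between the groups.

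The promoters of 5 members are printed because the study asked about E2F-regulated promoters. They were picked by hand, with values known, from the members that did not overlap between groups and have an entry in the RefSeq promoter table. Fgf10, Fgfr4, Fgfrl1 and Pdgfd also met these conditions and are not printed. Each run holds the 250 bases before the start site on the gene's own strand, in GRCm38.p6, and capitals mark the GC box, the letters GGGCGG or their reverse complement. They are from Igf2bp2 at chr16:22163300-22163549 (minus strand), Igf2bp3 at chr6:49214955-49215204 (minus strand), Igfbp2 at chr1:72824230-72824479 (plus strand), Igfbp7 at chr5:77408046-77408295 (minus strand) and Fgf18 at chr11:33147401-33147650 (minus strand).
Igf2bp2: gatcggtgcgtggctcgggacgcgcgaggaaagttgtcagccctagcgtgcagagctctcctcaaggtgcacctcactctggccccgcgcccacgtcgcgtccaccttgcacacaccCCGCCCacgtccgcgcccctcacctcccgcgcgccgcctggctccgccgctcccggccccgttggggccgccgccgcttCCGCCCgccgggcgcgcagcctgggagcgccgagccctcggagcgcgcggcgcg
Igf2bp3: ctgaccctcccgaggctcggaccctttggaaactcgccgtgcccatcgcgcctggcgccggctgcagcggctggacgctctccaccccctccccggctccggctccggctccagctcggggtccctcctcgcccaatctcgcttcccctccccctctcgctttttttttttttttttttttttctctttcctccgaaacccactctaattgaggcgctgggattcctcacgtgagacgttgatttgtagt
Igfbp2: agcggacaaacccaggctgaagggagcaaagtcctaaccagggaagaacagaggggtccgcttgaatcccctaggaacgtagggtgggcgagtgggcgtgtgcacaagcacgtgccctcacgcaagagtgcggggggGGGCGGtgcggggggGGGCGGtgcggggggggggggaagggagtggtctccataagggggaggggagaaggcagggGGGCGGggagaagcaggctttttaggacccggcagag
Igfbp7: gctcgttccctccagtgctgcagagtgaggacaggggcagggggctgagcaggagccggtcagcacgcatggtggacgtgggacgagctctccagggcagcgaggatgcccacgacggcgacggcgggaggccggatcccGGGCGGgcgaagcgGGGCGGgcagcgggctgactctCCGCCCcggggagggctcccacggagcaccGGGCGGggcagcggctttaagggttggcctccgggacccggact
Fgf18: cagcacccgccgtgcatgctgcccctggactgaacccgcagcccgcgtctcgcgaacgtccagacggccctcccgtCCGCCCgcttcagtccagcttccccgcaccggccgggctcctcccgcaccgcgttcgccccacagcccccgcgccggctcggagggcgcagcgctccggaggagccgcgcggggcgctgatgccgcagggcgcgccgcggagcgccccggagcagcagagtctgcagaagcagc

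Igf2bp2 held 2 GC boxes, Igfbp2 held 3, Igfbp7 held 4, Fgf18 held 1, and Igf2bp3 held none and instead a long run of T. Among the 38 members with a promoter in the table, 20 had a GC box, against 33% of 27025 promoters. Of the 35 tested members among them, 19 had one, against 58.3% of the promoters of tested genes. On both strands, 0 of the 38 held any of the E2F site letters TTTCCCGC, TTTCGCGC, TTTGCCGC or TTTGGCGC, which 1.92% of all promoters and 3.31% of those of tested genes did. The ETS site letters CCGGAAGT or CAGGAAGT were found in 2, Fgfrl1 and Igf2r (5.58% of all promoters and 8.07% of those of tested genes). TATAAA was found in 3, Igfbp4, Igfbp6 and Pdgfd (13% of all promoters and 6.44% of those of tested genes). These matches describe letters in one window per gene and say nothing of binding. With so low a share over all genes, 0 of 38 for the E2F letters shows little. The study used another measure, Ino80 occupancy in a wider window around the start sites of a set of E2F target genes.

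The 3 IGF2 mRNA binding proteins stood higher in every mutant heart than in any control heart. Igf2bp1 was at 70.8, 54.6 and 60.4 CPM in controls and 111, 95.3 and 80.0 CPM in mutants, a log2 fold change of 0.63 (SE 0.14, adjusted p = 0.091). Igf2bp2 was at 77.1, 69.3 and 74.5 CPM in controls and 97.2, 91.1 and 81.9 CPM in mutants (0.29, SE 0.08, adjusted p = 0.14). Igf2bp3 was at 47.2, 37.9 and 40.2 CPM in controls and 55.4, 53.4 and 50.3 CPM in mutants (0.34, SE 0.10, adjusted p = 0.14). On GRCm38, they lie apart from each other: Igf2bp1 (ENSMUSG00000013415.7, chr11:95957163-96005940, minus strand), Igf2bp2 (ENSMUSG00000033581.14, chr16:22059009-22163299, minus strand) and Igf2bp3 (ENSMUSG00000029814.8, chr6:49085223-49214957, minus strand). For each of the 3, mutant replicate 1 was the highest heart and control replicate 1 the highest control. Per kilobase of exon, their summed level was 19.6 to 23.5 in controls and 25.5 to 31.4 in mutants, and Igf2bp2 supplied 41.8% to 47.7% of it. Exons of Igf2bp1 and Igf2bp3 overlap antisense gene models, and whether strand was used in counting is not given in the sources used here.

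**Figure D2:**
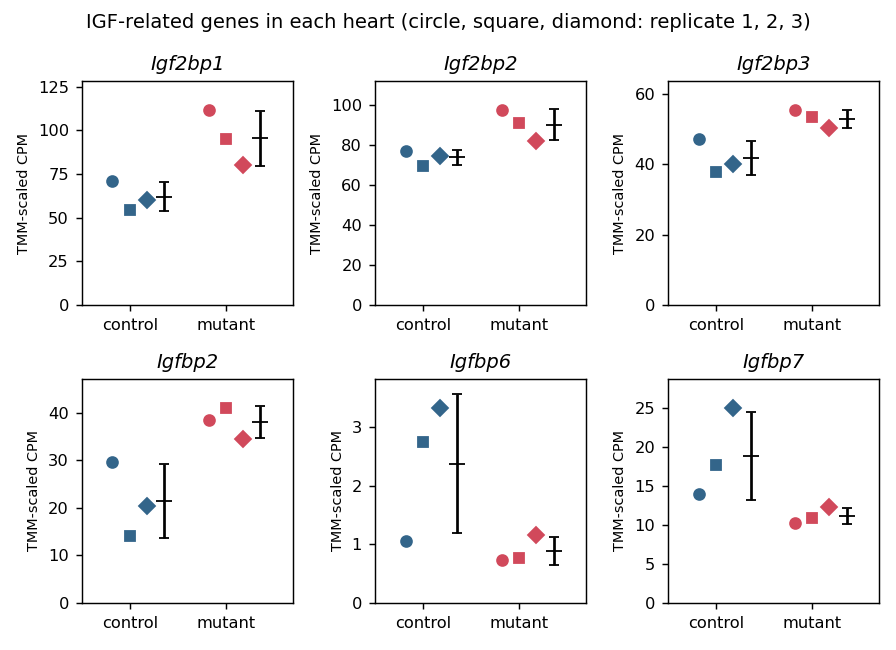
CPM of IGF pathway members in each heart, with circles, squares and diamonds for replicates 1, 2 and 3 and bars for the mean ± SD of 3 hearts. The mutant hearts lie above all controls for Igf2bp1, Igf2bp2, Igf2bp3 and Igfbp2 and below them for Igfbp7, while Igfbp6 overlaps.

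Among the IGF binding proteins, Igfbp2 and Igfbp7 separated the groups in opposite directions. Igfbp2, a binding protein that prefers IGF2, was at 29.7, 14.1 and 20.4 CPM in controls and 38.5, 41.0 and 34.4 CPM in mutants (log2 fold change 0.82, SE 0.23, adjusted p = 0.13). Igfbp7, which binds IGFs weakly and is abundant in blood vessels, was at 13.9, 17.7 and 25.0 CPM in controls and 10.3, 10.9 and 12.3 CPM in mutants (-0.76, SE 0.20, adjusted p = 0.12). Igfbp6, another protein with a preference for IGF2, was at 1.05, 2.76 and 3.33 CPM in controls and 0.735, 0.776 and 1.16 CPM in mutants (-1.44, SE 0.43, adjusted p = 0.15). The genes are Igfbp2 (ENSMUSG00000039323.16, chr1:72824503-72852474, plus strand), Igfbp7 (ENSMUSG00000036256.11, chr5:77349240-77408041, minus strand) and Igfbp6 (ENSMUSG00000023046.6, chr15:102144362-102149511, plus strand) on GRCm38. Control replicate 1 lay inside the mutant range of Igfbp6 and was the nearest control for all 3 genes. DESeq2 called all 3 (adjusted p = 0.0060 for Igfbp2, 0.0064 for Igfbp7 and 0.022 for Igfbp6).

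The most abundant binding proteins per kilobase, Igfbp5 and Igfbp4, did not separate the groups. Igfbp5 was at 1229.6, 487 and 989.8 CPM in controls and 1051, 1067 and 945 CPM in mutants (log2 fold change 0.18, 95% confidence interval -0.47 to 0.83), so the low value of control replicate 2 was the main spread. It made up 43.7% to 61.8% of the summed binding protein level per kilobase, whereas Igfbp7 made up 2.74% to 7.87%. Igfbp4 was at 298, 247 and 289 CPM in controls and 293, 304 and 327 CPM in mutants (0.15, interval -0.07 to 0.36). Igfbp3, a common carrier of IGFs, was at 91.1 ± 14.8 CPM in controls and 108 ± 17.6 CPM in mutants (SD, n = 3 each; 0.25, interval -0.09 to 0.59). Igfbp1, a liver product, had 7 reads in all hearts together and was not tested.

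Markers of coronary endothelium and red blood cells were lower in mutants on average, as Igfbp7 was. All 6 coronary markers were detected and had negative log2 fold changes, 5 of them with an unadjusted p under 0.05, where 9.98% of all genes were lower. Their sum was 399 to 638 CPM in controls and 295 to 320 CPM in mutants. All 4 endocardial markers had positive log2 fold changes, 0 of them with an unadjusted p under 0.05, with sums of 288 to 499 CPM in controls and 492 to 515 CPM in mutants. All 6 red blood cell markers were detected and had negative log2 fold changes (median -1.41), 4 of them with an unadjusted p under 0.05. Their sum was 6704, 13524 and 30199 CPM in controls and 4190, 4551 and 7582 CPM in mutants, with mutant replicate 3 above control replicate 1. Of the 7 pericyte and smooth muscle markers, 6 had negative log2 fold changes and 1 a positive one. In whole hearts, fewer cells of a type and less RNA per cell cannot be told apart, and the part of any of these cell types in the Igfbp7 values was not tested. Exons of Igfbp7 also overlap those of Polr2b on the opposite strand.

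Receptors and ligand of the IGF branch overlapped between groups. Igf1r, the main signalling receptor, was at 60.2, 64.9 and 77.6 CPM in controls and 81.3, 68.8 and 66.8 CPM in mutants (log2 fold change 0.10, 95% confidence interval -0.17 to 0.36). Igf2r, which removes IGF2 by uptake and does not signal as a kinase, was at 1091, 766 and 1213 CPM in controls and 1365, 1141 and 1165 CPM in mutants (0.26, interval -0.13 to 0.64), and it formed 87.7% to 92.0% of the summed receptor level per kilobase. Insr, the insulin receptor, was at 108, 106 and 135 CPM in controls and 122, 106 and 95.5 CPM in mutants (-0.11, interval -0.39 to 0.17). These intervals leave room for changes in either direction. Igf1 was at 118, 67.1 and 96.9 CPM in controls and 85.7, 86.8 and 68.1 CPM in mutants (-0.23, interval -0.67 to 0.21). Igf2, listed among the other pathway genes because the symbol rule did not take it, was at 4785 ± 519 CPM in controls and 5931 ± 769 CPM in mutants (SD, n = 3 each; log2 fold change 0.31, adjusted p = 0.24 by edgeR).

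**Figure D3:**
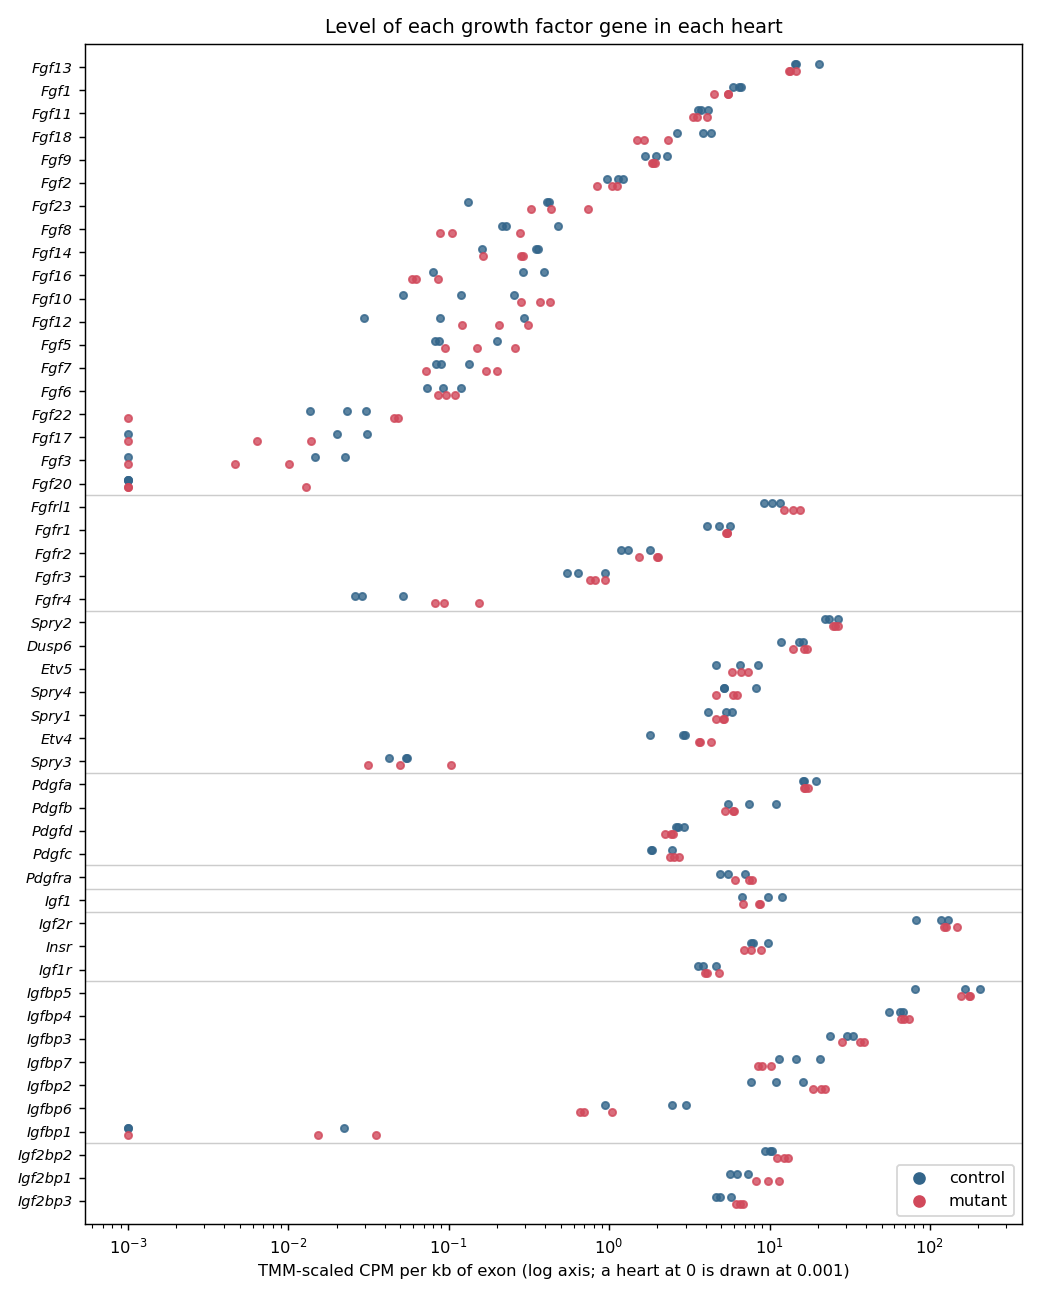
Level of each member as CPM per kilobase of exon on a log axis, by role, for control and mutant hearts. Igfbp5 and Igf2r are the highest members and most FGF ligands lie far below them.

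All 5 FGF receptors had positive log2 fold changes, from 0.17 for Fgfr1 to 1.51 for Fgfr4. Fgfrl1, a receptor that lacks the kinase domain, was at 32.1, 25.7 and 28.8 CPM in controls and 38.9, 34.4 and 43.1 CPM in mutants (0.43, SE 0.11, adjusted p = 0.13). It was higher in all 3 mutants than in any control and made up 58.0% to 66.0% of the summed FGF receptor level per kilobase. Fgfr4 was near the detection limit, with 7, 3 and 3 reads in controls and 27, 14 and 16 reads in mutants (0.184, 0.102 and 0.0926 CPM against 0.292, 0.329 and 0.547 CPM, log2 fold change 1.51, SE 0.48, adjusted p = 0.16).

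The kinase receptors at higher levels overlapped between groups. Fgfr1, a receptor that acts in cardiomyocyte growth, was at 47.6, 40.0 and 55.6 CPM in controls and 53.9, 54.0 and 52.8 CPM in mutants (log2 fold change 0.17, 95% confidence interval -0.10 to 0.43). Fgfr2 was at 18.6, 13.6 and 12.2 CPM in controls and 20.9, 20.5 and 15.9 CPM in mutants (0.37, interval -0.03 to 0.77). Its exons overlap those of Ctbp2 on the same strand, where strand could not tell the reads apart. Exons of Fgfr1 and Fgfr3 overlap gene models on the opposite strand. Fgfr3 was at 6.73, 3.91 and 4.60 CPM in controls and 5.85, 5.45 and 6.70 CPM in mutants (0.23, interval -0.25 to 0.72). Summed over the 5 receptors, the level per kilobase was 15.2 to 19.2 in controls and 20.7 to 23.5 in mutants, without overlap.

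The genes grouped as FGF ligands include Fgf11, Fgf12, Fgf13 and Fgf14, which stay inside the cell and are not secreted. The group divided, with 6 of 14 tested above 0 and 8 below. Those that separated the groups were Fgf1 (ENSMUSG00000036585.13, chr18:38838673-38929472, minus strand), Fgf10 (ENSMUSG00000021732.12, chr13:118669791-118792115, plus strand) and Fgf18 (ENSMUSG00000057967.10, chr11:33117430-33147400, minus strand) on GRCm38. Fgf18, best known for its part in skeletal and lung growth, was lower in every mutant heart, at 3.13, 4.60 and 5.15 CPM in controls and 1.97, 2.75 and 1.78 CPM in mutants (log2 fold change -0.98, SE 0.25, adjusted p = 0.12). Fgf1, the acidic FGF, was at 36.2, 35.5 and 32.3 CPM in controls and 30.1, 30.1 and 24.7 CPM in mutants (-0.29, SE 0.10, adjusted p = 0.19), again without overlap. Fgf10, a ligand of the second heart field and of cardiac fibroblast development, was at 0.552, 0.238 and 1.17 CPM in controls and 1.97, 1.29 and 1.71 CPM in mutants (1.34, SE 0.48, adjusted p = 0.19). Its reads numbered 21, 7 and 38 in controls and 182, 55 and 50 in mutants, its exons overlap an antisense model, and the log2 fold change was 2.04 without control replicate 3.

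Fgf13, an intracellular member that binds sodium channels and is not secreted, had the highest FGF level per kilobase, at 42.9% to 51.6% of the ligand sum. It was at 58.4, 81.9 and 57.7 CPM in controls and 53.7, 58.5 and 53.4 CPM in mutants (log2 fold change -0.26, 95% confidence interval -0.57 to 0.05), with mutant replicate 2 just inside the control range. Fgf9, an epicardial and endocardial mitogen for the myocardium, was at 9.14, 10.6 and 7.75 CPM in controls and 9.01, 8.56 and 8.72 CPM in mutants (-0.064, interval -0.37 to 0.24). The FGF ligand sum per kilobase was 32.4 to 39.5 in controls and 27.4 to 30.6 in mutants, without overlap. It includes the intracellular members, Fgf13 foremost, and so does not measure secreted ligand. Fgf16, of the same subfamily as Fgf9, had 5, 14 and 21 reads in controls and 9, 6 and 3 in mutants and was too low to be tested, as were Fgf3, Fgf17, Fgf20 and Fgf22 with 2 to 18 reads in all.

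**Figure D4:**
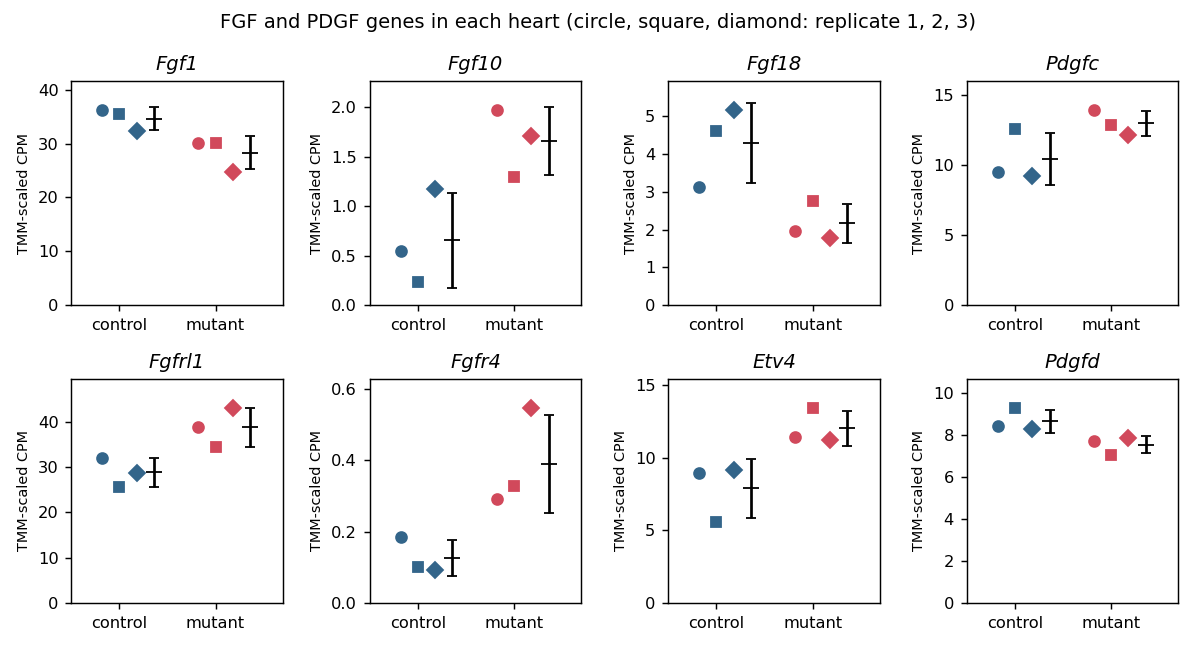
CPM of FGF and PDGF members in each heart, with circles, squares and diamonds for replicates 1, 2 and 3 and bars for the mean ± SD of 3 hearts. Fgf1, Fgf18 and Pdgfd lie lower, and Fgf10, Fgfrl1, Fgfr4 and Etv4 higher, in all 3 mutant hearts than in the controls, while Pdgfc overlaps.

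Feedback inhibitors of the FGF cascade showed no separation, and 1 transcriptional target did. Etv4 was at 8.98, 5.55 and 9.20 CPM in controls and 11.5, 13.4 and 11.2 CPM in mutants (log2 fold change 0.60, SE 0.19, adjusted p = 0.16), higher in every mutant. Its relative Etv5 was at 34.7, 19.0 and 27.0 CPM in controls and 30.0, 27.4 and 24.1 CPM in mutants (0.013, 95% confidence interval -0.44 to 0.47). Spry2, with the highest level per kilobase of this group, was at 55.6, 49.1 and 46.5 CPM in controls and 53.5, 55.8 and 52.1 CPM in mutants (0.093, interval -0.10 to 0.29). Dusp6, the ERK phosphatase, was at 47.5, 36.8 and 50.5 CPM in controls and 51.6, 53.7 and 44.0 CPM in mutants (0.15, interval -0.15 to 0.45). Spry1 and Spry4 had log2 fold changes of -0.033 and -0.15 with adjusted p of 0.91 and 0.69, and Spry3 had too few reads to be tested.

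Of the PDGF ligands, Pdgfc, which acts through Pdgfra, had the only unadjusted p under 0.05. It was at 9.46, 12.5 and 9.23 CPM in controls and 13.9, 12.9 and 12.1 CPM in mutants (log2 fold change 0.32, SE 0.14, adjusted p = 0.26), with control replicate 2 inside the mutant range. Pdgfd, a ligand of Pdgfrb, was at 8.43, 9.29 and 8.27 CPM in controls and 7.71, 7.08 and 7.86 CPM in mutants (-0.20, SE 0.11, adjusted p = 0.36), lower in each mutant heart. Pdgfb, the endothelial ligand that recruits pericytes, was at 22.8, 31.1 and 45.7 CPM in controls and 22.0, 24.5 and 25.0 CPM in mutants (-0.48, SE 0.22, adjusted p = 0.27), so controls 2 and 3 lay above the mutants and control 1 among them. Pdgfa had the highest PDGF level per kilobase, 51.6% to 61.9% of the sum, and was at 50.1, 61.0 and 51.3 CPM in controls and 52.0, 54.2 and 51.4 CPM in mutants (-0.043, 95% confidence interval -0.25 to 0.16). Pdgfra, a receptor of epicardium-derived fibroblasts, was at 70.9, 55.0 and 49.4 CPM in controls and 77.9, 74.7 and 61.1 CPM in mutants (0.29, interval -0.05 to 0.62). Of the 7 fibroblast and mesenchyme markers, which include Pdgfra, 3 had positive and 4 negative log2 fold changes. Dcn (-0.46), Lum (-0.42) and Postn (-0.43) were lower in every mutant heart, and their bearing on Pdgfra was not tested. All 7 pericyte and smooth muscle markers were detected, 6 of them with negative log2 fold changes and 3 of these with an unadjusted p under 0.05 (9.98% of all genes were lower). Their sum, 1227 to 1546 CPM in controls and 1077 to 1308 CPM in mutants, is mostly Acta2 (899 to 1281 CPM). The pericyte gene Rgs5 was at 44.2, 99.95 and 101 CPM in controls and 12.8, 11.0 and 16.1 CPM in mutants (-2.62, adjusted p = 0.065), and Kcnj8 (-0.74) and the smooth muscle gene Myh11 (-2.40) were the others under that p. Their part in the Pdgfb and Pdgfd values was not tested.

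The other genes of the 3 pathways, 82 listed from co-receptors to kinases, of which 78 were tested, had 45 positive and 33 negative log2 fold changes and a median of 0.036. Under edgeR 0 reached an adjusted p of 0.05, and 9 higher with 2 lower genes had an unadjusted p under 0.05, together 14.1% of them against 19.5% of all tested genes. The FGF co-receptors and cofactors held 6 of the 9, out of 16 tested (37.5%, where 9.48% of all genes were higher at that p), a group singled out after its values were seen. Among these 6, the heparan sulfate sulfotransferase Hs6st2 was at 15.8 ± 3.55 CPM in controls and 27.6 ± 3.29 CPM in mutants (SD, n = 3 each, log2 fold change 0.80, adjusted p = 0.083). The others were Hs6st1 (0.17), the proteoglycans Gpc3 (0.30) and Sdc1 (0.29), Flrt3 (0.36), which binds FGF receptors, and the FGF23 co-receptor Kl (1.05, at 0.547 and 1.14 CPM). All 6 lay higher without overlap between groups, where 14.3% of all genes did. Over the whole list, 14 of the 78 tested genes did not overlap in either direction (17.9%), against 27.1% of all genes. Spred3, an inhibitor of the MAP kinase cascade, was at 1.85 ± 0.324 CPM in controls and 4.22 ± 0.650 CPM in mutants (1.19, adjusted p = 0.078), and the kinase gene Araf had a log2 fold change of 0.19. Grb14, an adaptor that inhibits the insulin receptor, was among the lower genes (-0.37). In the RAS and MAP kinase group 1 of 10 tested genes had an unadjusted p under 0.05, and in the receptor adaptor group 0 of 11 did. Pdgfrb, the receptor of Pdgfb and Pdgfd, was at 51.6 CPM in controls and 46.0 CPM in mutants on average (log2 fold change -0.16, adjusted p = 0.46).

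**Figure D5:**
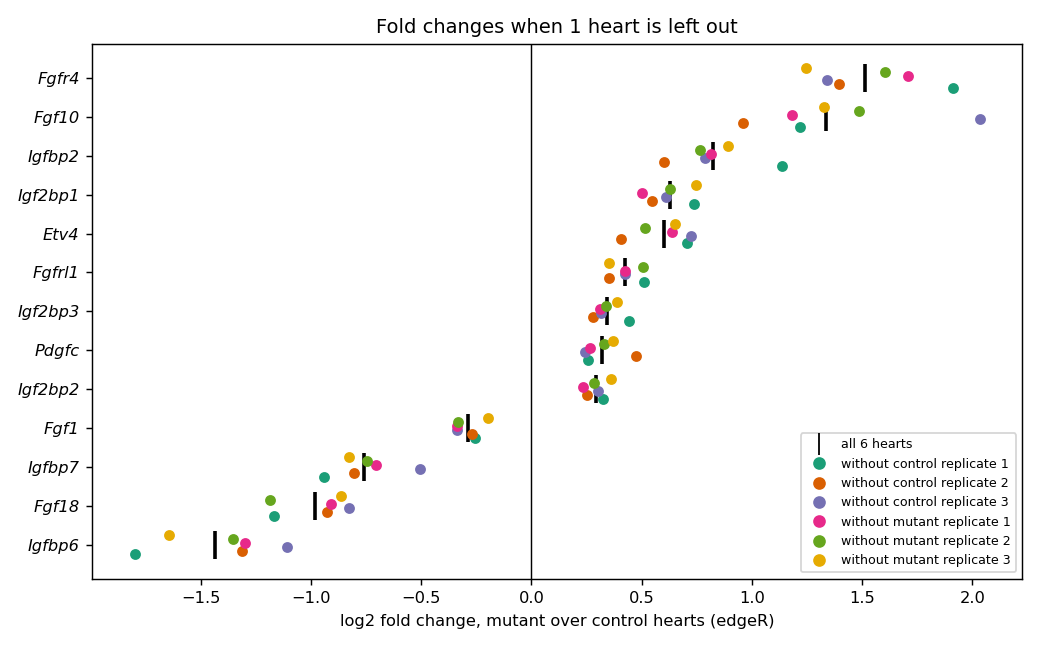
Log2 fold change (mutant over control) of the members with an unadjusted p under 0.05, refitted with each heart left out in turn. The signs held in all 6 refits, and those of Igfbp2, Igf2bp3, Igfbp6, Igfbp7, Fgfrl1 and Fgfr4 lay farthest from 0 without control replicate 1.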

How the data were processed

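RNA from 6 whole hearts was sequenced as mRNA libraries, and the labels and design text call the 3 samples of each group biological replicates. The authors mapped reads with STAR (2.4.2a in the submitters' processing notes) to GRCm38 with the GENCODE annotation and counted them per gene, and deposited raw counts without normalization. Whether counting used strand is not given in the sources used here, and exons of 13 tested members overlap another gene model. The authors' second table holds DESeq2 fold changes and p-values of their comparison, and only its gene symbols were used.

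Counts were tested in R 4.3.3 with edgeR 4.0.16 (limma 3.58.1): filterByExpr (minimum count 10, minimum total 15), TMM scaling, genotype as the only term, Benjamini-Hochberg adjustment over 17125 genes, threshold 0.05. SEs of log2 fold changes are the absolute change over the root of the F statistic. CPM per kilobase used GENCODE exon lengths on GRCm38. Members and lists were chosen with earlier results of these data known. Values in every heart were given, by rule, for tested members with an unadjusted p under 0.05 or without overlap between groups (mean of at least 1 CPM), receptors and the highest member of each role per kilobase. Of the other pathway genes, those under that p plus Igf2 and Pdgfrb were named, except 1 that is not reported here. Per-heart values of Igfbp4, Fgf9, Etv5, Dusp6, Pdgfb and Fgf16 were added after they were seen. Alternatives were DESeq2 1.42.0, RLE size factors, no scaling, 2 other filters, each heart left out, the replicate number as a block and, added after the data were seen, a term for Y-linked genes.

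Libraries held 28948836 to 89675692 counts with a common biological coefficient of variation of 0.153. On simulated counts, edgeR recovered 66.5% of 200 genes changed by 2-fold and 22% of 200 changed by 1.5-fold, with 9 and 5 false calls. DESeq2 recovered 75% and 51.5%, with 38 and 39 false calls. Replicates differed by more than counting noise (chi-square of at least 20.6 per degree of freedom) and were each counted once. Same-numbered hearts did not deviate together.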

Additional observations from a re-analysis of the deposited data

How the results depend on the processing

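The median log2 fold change of the tested members stayed positive under all 13 alternatives (0.069 to 0.20), and 34 of the 43 tested members kept their sign in each fit they entered. DESeq2 called 4 members higher and 3 lower, the fit of all genes with at least 1 count called 2 and 1, and leaving out single hearts gave 0 to 3 and 0 to 4, with calls only without control replicate 1. Among the other pathway genes, DESeq2 and the fit of all genes with at least 1 count each called 2 higher, and leaving out hearts gave 0 to 3 higher and 0 to 1 lower. At an unadjusted p under 0.05, 7 members were lower with the Y-linked gene term. Other pathway genes at that p numbered 4 to 10 higher and 1 to 4 lower when hearts were left out, and the lower ones 0 without scaling factors, 1 with at least 1 CPM in 3 hearts and 1 with the Y-linked gene term. Members without overlap between groups numbered 9 to 14 higher (14 without control replicate 1, 13 without mutant replicate 3) and 5 to 7 lower (7 without control replicate 1 or 3) when hearts were left out, where fewer hearts separate more easily. The cause of the other shifts was not tested. For the unadjusted and non-overlap counts under these alternatives, shares over all genes were not taken, so they show nothing particular to the members.

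The other 9 members turned sign in at least 1 fit, with log2 fold changes as large as 0.33 (Fgf5). Leaving out hearts gave -0.066 to 0.90 for Fgf5, -0.14 to 0.20 for Fgf6, -0.17 to 0.054 for Fgf9, -0.17 to 0.071 for Spry1, -0.26 to 0.10 for Spry4, -0.18 to 0.24 for Etv5, -0.095 to 0.053 for Pdgfa, -0.21 to 0.012 for Insr and -0.12 to 0.47 for Igfbp5. RLE size factors gave -0.00060 for Fgf6, the Y-linked gene term 0.0021 for Fgf9 and -0.035 for Etv5, and no scaling factors 0.029 for Spry1 and 0.016 for Pdgfa. With the replicate number as a block, the median was 0.15, and 11 members stood higher and 6 stood lower before adjustment (p under 0.05). The shares over all genes were not taken for that fit, so these counts cannot be set against a background. Deviations of same-numbered hearts correlated at 0.024, -0.084 and -0.073, so the numbers were not taken to pair the hearts. Across all pairs of a control and a mutant, the highest was 0.14, for control replicate 2 with mutant replicate 3. The methods state that litter mates served as controls, but the litter of each heart is not given in the sources used here. A pairing by litter was therefore not tested. In the simulation with 3 hearts a group, edgeR recovered 22% of 1.5-fold changes, a setting that does not give its power in these data. In the hearts themselves edgeR called 0 of the 17125 tested genes, Rgs5 at a log2 fold change of -2.62 included (adjusted p = 0.065). Members under about 1 CPM rest on few reads.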
